A study of Mus musculus with 6 samples.

Results

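Sub-cluster 1 of the cells named Fibroblast was examined in cultured cells from the retinal pigment epithelium (RPE) and choroid, the vascular layer behind the retina. Its members were all cells with the type name Fibroblast and the fibroblast sub-cluster number 1 in the deposited annotation, 9727 of 25428 cells in all and 9727 of 12651 Fibroblast cells. A further 238 cells of sub-cluster 1 carried another type name and were left out. The 6 samples came from male C57BL/6J mice of 12 to 16 months, namely 3 samples with the genotype Dram2 wt/wt and 3 with Dram2 ko/ko. The Dram2 ko/ko mice carry a CRISPR deletion of exon 4 of Dram2. Dram2 encodes a membrane protein of the lysosome linked to autophagy. The labels do not say whether a sample was 1 mouse or a pool, so that p-values measure the spread between these samples. Dram2 ko/ko replicate 3 was the only sample of batch 2, and batch cannot be told apart from that sample.

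Fibroblasts build and remodel the extracellular matrix by secreting collagens, fibronectin and proteoglycans, together with the enzymes that crosslink and degrade them. On stiff culture plastic and under TGF-beta signalling, fibroblasts commonly turn into myofibroblasts, which assemble contractile fibres from smooth muscle actins, transgelin (Tagln) and calponin (Cnn1). Many genes of this contractile programme are controlled by serum response factor, which binds a motif called the CArG box. Cultured fibroblasts also secrete chemokines that draw in immune cells, and in the choroid they lie beside vessels, pericytes and melanocytes.

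The members numbered 1490, 1777 and 1964 cells for Dram2 wt/wt replicates 1 to 3, and 628, 2627 and 1241 cells for Dram2 ko/ko replicates 1 to 3, the order used for values of single samples throughout. Their median depth was 17995 to 61039 unique molecular identifiers (UMIs, each counting 1 captured RNA molecule), with the highest value in Dram2 ko/ko replicate 1 and the lowest in Dram2 ko/ko replicate 2. The difference in median depth between genotypes was within the spread of samples (exact two-sided permutation p 0.8), where 3 samples against 3 allow no p below 0.1. The members of a sample held 39252212 to 63325482 UMIs in all. The median mitochondrial share was 2.51% to 3.28%, and only 3 members had under 500 genes or over 20% mitochondrial counts. Cells carry running numbers in place of barcodes, so barcodes shared between libraries could not be counted.

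The members had high levels of general fibroblast genes. Vim was at 5504 ± 373 CPM (CPM, a gene's summed UMIs scaled to a common library size, mean ± SD, n = 6), Fn1 at 772 ± 123 CPM, Col1a1 at 706 ± 94.5 CPM, Dcn at 466 ± 46.5 CPM and Pdgfra at 52.8 ± 5.77 CPM. Since 1 UMI stands for 1 molecule read at its 3′ end, these levels need no scaling by transcript length. Several defining genes of other cell types were near 0, with Pecam1 of endothelial cells at 0.205 CPM, Ptprc of leukocytes at 0.0583 CPM, Rpe65 of RPE cells at 0.00425 CPM, Sox10 of melanocytes and Schwann cells at 0.0402 CPM and Kcnj8 of pericytes at 0.310 CPM. Exceptions within those lists were Emcn, an endothelial sialomucin, at 420.1 ± 53.8 CPM, and 5 of the 10 pericyte and smooth muscle markers, Des at 102 ± 10.2 CPM, Mcam at 64.5 ± 12.8 CPM, Myh11 at 49.1 ± 12.3 CPM, Cspg4 at 36.2 ± 5.46 CPM and Rgs5 at 33.2 ± 8.51 CPM. The summed level of the 10 endothelial markers, mostly Emcn, was 397 to 440.2 CPM for Dram2 wt/wt and 449 to 542 CPM in Dram2 ko/ko, and that of the 10 pericyte and smooth muscle markers 276 to 325 and 261 to 322 CPM. The summed level of the 12 RPE markers was 5.70 to 9.01 CPM for Dram2 wt/wt and 5.48 to 7.31 CPM in Dram2 ko/ko, and that of the 10 myeloid markers 18.9 to 22.8 and 19.5 to 23.8 CPM.

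Mgp, Col1a1, Actg2 and Sprr1a are the genes given as marks of sub-cluster 1, and none of them had its highest mean level there. Mgp, an inhibitor of calcification, was at 2499.6, 2745 and 2053 CPM across the Dram2 wt/wt libraries and 2486, 2602 and 2574 CPM across the Dram2 ko/ko ones, a narrow range in which the genotypes overlapped. It was higher in sub-cluster 7, at 13469 CPM, and in Fibroblast cells of sub-cluster 3, at 5858 ± 1184 CPM. All cells of sub-cluster 3 together had 2070 ± 545 CPM of Mgp. Col1a1, a chain of type I collagen, reached 1824 CPM in sub-cluster 6, against the 706 CPM of the members. Actg2, the enteric smooth muscle actin, was at 1084, 1359 and 1178 CPM across the Dram2 wt/wt libraries and 1143, 1195 and 1441 CPM across the Dram2 ko/ko ones. The genotypes overlapped for Actg2 as well, and sub-cluster 5 had more of it, 1541 CPM. Sprr1a, a precursor of the cornified envelope of skin, was sparse at 13.0, 9.24 and 6.84 CPM across the Dram2 wt/wt libraries and 2.27, 5.37 and 12.1 CPM across the Dram2 ko/ko ones, against a mean of 47.9 CPM in sub-cluster 5. That mean rests on 1 sample, since sub-cluster 5 had 23.9, 59.4 and 23.8 CPM across the Dram2 wt/wt libraries and 2.66, 5.50 and 172 CPM across the Dram2 ko/ko ones, and the other 5 samples averaged 23.0 ± 22.6 CPM (SD, n = 5, Dram2 ko/ko replicate 3 left out). The cells of sub-cluster 5 were shallow, with a median of 5856 UMIs, and those of sub-cluster 6 had a median mitochondrial share of 21.0%. Of the 25 cornified envelope genes, 18 were under 1 CPM in the members and 8 were at 0 in all 6 samples. The abundant exceptions were Krt19, an epithelial keratin, at 139 ± 14.1 CPM and Tgm2, the tissue transglutaminase, at 52.8 ± 9.02 CPM.

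**Figure D1:**
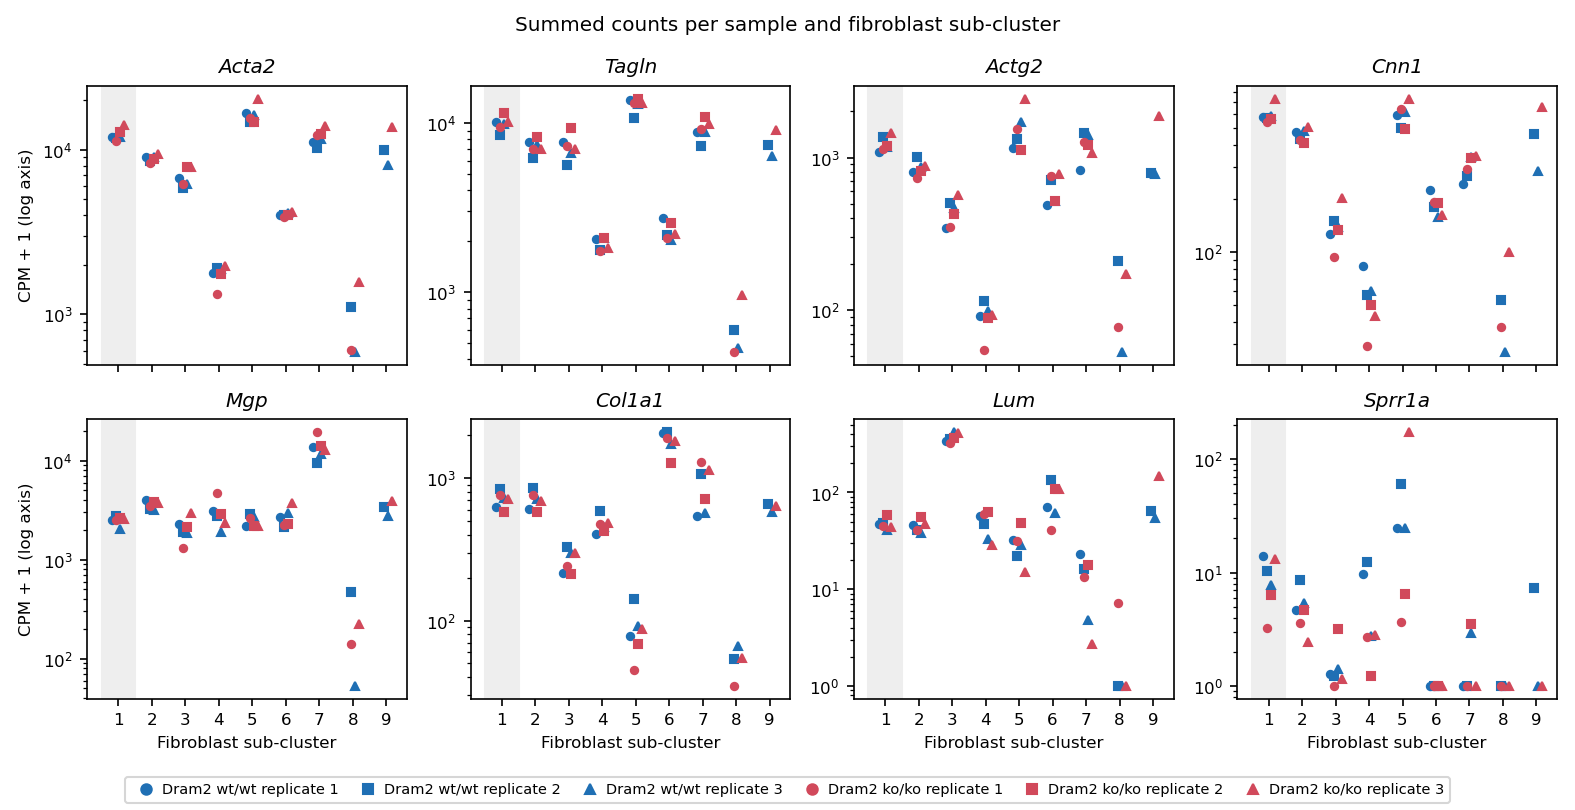
Level of 8 genes in each sample and fibroblast sub-cluster (x axis, sub-clusters 1 to 9; sub-cluster 1, shaded, holds Fibroblast cells only), as CPM plus 1 on a log axis, for samples with 10 or more cells. The contractile genes Acta2, Tagln, Actg2 and Cnn1 were low in sub-clusters 4 and 8, and sub-clusters 5, 7 and 9 had mean levels of 10540.3 CPM of Acta2 and 1148 CPM of Actg2 or more, while Lum was highest in sub-cluster 3 and Mgp in sub-cluster 7.

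Free RNA can set a floor under such levels, but its amount was not measured. Endothelial cells, which should lack Actg2, had 112 CPM of it and 1972 CPM of Acta2, and the few Myeloid cells had 471 and 6433 CPM. The members stood above both, at 1233 ± 137 CPM and 12273 ± 1045 CPM. Cells of sub-cluster 8 had a median mitochondrial share of 91.1%.

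Contractile genes were abundant in the members. Acta2, the alpha smooth muscle actin that defines myofibroblasts, was at 11839, 11817 and 11883 CPM across the Dram2 wt/wt libraries and 11207, 12732 and 14162 CPM across the Dram2 ko/ko ones. Tagln, an actin-bundling protein, was at 10208, 8548 and 9850.3 CPM across the Dram2 wt/wt libraries and 9505, 11506 and 10138 CPM across the Dram2 ko/ko ones, but 65.1% of its 3′ sequence is shared with other annotated genes, so its count is uncertain. Both genes varied little between samples, and their genotypes overlapped. Cnn1, which restrains actomyosin, was at 594 ± 68.7 CPM, Myl9, a regulatory light chain of myosin, at 958 ± 60.7 CPM, Lmod1, an actin nucleator, at 124 ± 15.3 CPM, and Myh11, the smooth muscle myosin heavy chain, at 49.1 ± 12.3 CPM. Myocd, the master coactivator of the smooth muscle programme, was near the floor at 0.615 ± 0.108 CPM. The summed level of the 20 contractile genes was 33283 to 36470.1 CPM for Dram2 wt/wt and 33367 to 38865 CPM in Dram2 ko/ko.

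The 250 bases before the annotated start of contractile genes were searched for the CArG box, a motif that is its own reverse complement and so is found on both strands at once, because 12 of the 16 measured were over against sub-cluster 4. RefSeq promoters on GRCm38.p6 were at hand for 16 of the 20 genes, a set that differs from the 16 measured. For Actg2, Tagln, Myh11 and Myocd no promoter was at hand, so they were not searched. Exact matches were held by 3 genes, Acta1, Actc1 and Myl9. The other genes searched, among them Acta2, Cnn1, Lmod1, Tpm1 and Des, had no exact match. Actc1, at a mean of 3.67 CPM for Dram2 wt/wt and 3.57 CPM for Dram2 ko/ko, was not among those measured. Of all 32851 promoters, 1.47% held one, a share of promoters and not of genes, since a gene can have several. The promoters of Acta1, the skeletal muscle actin with the highest log2 ratio of CPM plus 1 against sub-cluster 4, and of Myl9 are shown, with the CArG box in capitals. It starts at position -73 of Acta1 and at position -161 of Myl9, counted from the start. An exact match describes the letters only, and promoters without one may hold a variant of the motif.
Acta1, chr8:123894776-123895025, minus strand: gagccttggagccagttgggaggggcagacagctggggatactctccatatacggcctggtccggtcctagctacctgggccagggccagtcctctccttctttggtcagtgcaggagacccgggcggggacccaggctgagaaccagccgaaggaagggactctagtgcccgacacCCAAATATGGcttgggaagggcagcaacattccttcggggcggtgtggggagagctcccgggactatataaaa
Myl9, chr2:156775214-156775463, plus strand: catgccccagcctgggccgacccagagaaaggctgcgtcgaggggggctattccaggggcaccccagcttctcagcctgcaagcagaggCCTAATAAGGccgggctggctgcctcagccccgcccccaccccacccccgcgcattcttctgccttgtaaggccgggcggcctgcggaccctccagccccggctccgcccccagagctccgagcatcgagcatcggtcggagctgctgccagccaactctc

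Against the other fibroblast sub-clusters together, the members differed mainly by genes that were lower in them. Of the 13291 cells of that rest, 6098 were Fibroblast proliferating cells of sub-cluster 2. The sub-clusters were drawn from these same genes, so levels between them are described without a test. A gene was counted when its log2 ratio, taken per sample on CPM plus 1, was beyond 1 in all 6 samples, among 6944 genes at 20 CPM or more. Only 1 gene, 2210409E12Rik, was over (0.0144%; 3 were without Dram2 wt/wt replicate 2 and 2 without each other sample but Dram2 ko/ko replicate 1), while 187 were under (2.69%). The 10 lowest were cell cycle genes. Mki67, a mark of cycling cells, was at 1.06 ± 0.325 CPM against 56.7 ± 3.95 CPM, and Cenpf, a kinetochore protein, at 1.94 ± 0.570 CPM against 95.5 ± 6.22 CPM. All 22 of the G2/M phase genes that reached 20 CPM and 13 of 17 S phase genes were under, with median log2 ratios of -4.20 and -1.79, where the median of all 6944 genes was -0.05. Genes near 1 CPM in the members, such as Mki67, passed 20 CPM only through the rest, so the filter fixed that they counted as under. In each such comparison the filter asked for 20 CPM in either group. Any gene with a mean below that in the members thus had a lower mean there by construction. Most G2/M and S phase genes were of this kind. Against Fibroblast cells of sub-clusters 3 and 4, 0 G2/M phase genes were beyond 1 in all samples. Their median log2 ratios there were 1.12 over 2 genes and 0.59 over 3.

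The genes with the highest ratios over the rest included several muscle genes. Acta1 was at 115, 90.5 and 191 CPM across the Dram2 wt/wt libraries and 139, 159 and 121 CPM across the Dram2 ko/ko ones, with a log2 ratio of 1.28 ± 0.34 (SD, n = 6). Cnn1 (0.91), Actg2 (0.90), Lmod1 (0.90), Myh11 (0.96) and Eno3, the muscle enolase (0.87), had smaller log2 ratios that were positive in all 6 samples. Others in this group were Cavin2, a protein of caveolae, at 714 ± 30.7 CPM against 334 ± 29.7 CPM, and Igfbp2, which binds insulin-like growth factors, at 1203 ± 176 CPM against 649 ± 78.3 CPM. Tgfb3, a TGF-beta ligand, was at 48.0 ± 12.1 CPM against 22.5 ± 3.90 CPM. Coil, Mgll and Lims2 had log2 ratios of 0.96, 0.94 and 0.94. Lce1h and Crct1, both from the epidermal differentiation complex, had log2 ratios of 1.18 and 0.94. Lce1h shares 33.0% of its 3′ sequence with other genes, and 2210409E12Rik, at 53.3 ± 18.2 CPM, shares 63.0%. The 20 contractile genes had a median log2 ratio of 0.56 over the 16 that reached 20 CPM, and the 15 targets of serum response factor and YAP in the actin cytoskeleton one of 0.30, with 0 of them beyond 1 in all samples.

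Many matrix genes were high in the members, and few were beyond 1 against the rest in all samples. Sparc, which binds collagen, was at 3469 ± 162 CPM, Bgn, a small proteoglycan, at 1943 ± 178 CPM, Serpinh1, the collagen chaperone, at 1708 ± 117 CPM, Col8a1, a short-chain collagen, at 1206 ± 176 CPM and Lox, which crosslinks collagen and elastin, at 1103 ± 66.5 CPM. The median log2 ratio to the rest was 0.34 for 12 collagens, 0.11 for 14 genes of collagen processing and 0.28 for 11 genes of elastic fibres, with 0 genes of these lists beyond 1 in either direction. Of these, 8, 9 and 7 were higher in all 6 samples, as were 25.5% of all 6944 genes. Spp1, the secreted phosphoprotein osteopontin, went the other way, at 992, 1539.6 and 898 CPM across the Dram2 wt/wt libraries and 1270.4, 1408 and 1496 CPM across the Dram2 ko/ko ones against 5072 ± 540.4 CPM in the rest. Even the highest of the 6 samples lay below the lowest sample of the rest, at 4380.1 CPM. Of 11 chemokines and cytokines, 5 were under as well, with a median log2 ratio of -1.21. Those with a mean below 20 CPM in the members passed only through the rest, which fixed their direction. Among 4 small leucine-rich proteoglycans 1 was under, with a median log2 ratio of -0.46.

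Fibroblast cells of sub-cluster 3 had higher levels of several secreted factors than the members, and few contractile genes counted as over or under. They were 811 of the 3790 cells of sub-cluster 3, and levels given for sub-cluster 3 in this comparison are theirs. Of 6687 genes, 31 were over in the members (0.464%) and 78 were under (1.17%). Of 12 chemokines and cytokines that reached 20 CPM, 9 were under, with a median log2 ratio of -1.81 where that of all genes was 0.03. Only 8 of this list reached 20 CPM in the members or in the proliferating cells of sub-cluster 2. Those with a mean below 20 CPM in the members, such as Ccl11, passed only through sub-cluster 3, which fixed their direction. Il11 was above 20 CPM in every sample of the members. Ccl11, the eosinophil chemokine eotaxin, was at 9.4, 11.9 and 5.97 CPM across the Dram2 wt/wt libraries and 16.0, 8.36 and 20.4 CPM across the Dram2 ko/ko ones, and at 410.5 ± 228 CPM in sub-cluster 3. Il11, a cytokine of the IL-6 family, had a log2 ratio of -2.74, Ccl7, a monocyte chemokine, one of -2.55, and Il6 one of -2.22. Csf1, the macrophage growth factor, was at 1024 ± 89.4 CPM, with a log2 ratio of -0.27. The small leucine-rich proteoglycans Lum, at 46.4 ± 5.92 CPM against 616 ± 48.3 CPM, and Dcn, with a log2 ratio of -2.27, were also under.

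Of 8 genes of the IGF system, 1 was over and 2 were under in the same comparison, and of 11 metalloproteinases and inhibitors 1 was over and 1 under. Igf1 was at 17.1 ± 1.35 CPM against 162 ± 22.3 CPM, and Igfbp5, which binds it, at 37.7 ± 12.5 CPM against 422 ± 173 CPM. Sod3, the extracellular superoxide dismutase, Fndc1 and Col10a1 had log2 ratios of -3.55, -3.73 and -3.07. Mmp3, stromelysin, had one of -3.06 ± 1.38 and spread widely between samples. Igf1, Sod3, Fndc1, Col10a1 and Mmp3 had means below 20 CPM in the members and passed only through sub-cluster 3, so the filter fixed their direction. On the other side, Col2a1, the collagen of cartilage and vitreous, was at 55.4 ± 7.70 CPM in the members against 3.72 ± 2.87 CPM. It passed only through the members, which likewise fixed its direction. Stmn2, a regulator of microtubules best known from neurons, was at 654, 611 and 656 CPM across the Dram2 wt/wt libraries and 546, 908 and 646 CPM across the Dram2 ko/ko ones and at 69.6 ± 29.1 CPM in sub-cluster 3. Ccnd1, the cyclin of entry into the cell cycle, was at 259 ± 27.8 CPM against 52.6 ± 13.0 CPM, and Col6a3, Klra4 and Lce1h had log2 ratios of 2.26, 2.57 and 3.53. Ccnd1 and Lce1h share 33.3% and 33.0% of their 3′ sequence with other genes, so their counts are uncertain. Of 16 contractile genes, only Acta1 (2.5) was over and only Des (-1.23, with 17.3% of its 3′ sequence shared) was under, with a median log2 ratio of 0.02. Acta2 was at 11583 ± 726 CPM in Fibroblast cells of sub-cluster 3. In all cells of sub-cluster 3, whatever their type name, Acta2 was at 6764 ± 863 CPM and Actg2 at 444 ± 88.2 CPM, below the members.

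Fibroblast cells of sub-cluster 4 differed from the members in contractile genes. Of 7109 genes, 102 were over in the members (1.43%) and 163 were under (2.29%). Of 16 contractile genes, 12 were over and 0 under, with a median log2 ratio of 2.38 where that of all genes was -0.14. Actg2 was at 89.4 ± 19.4 CPM in sub-cluster 4, where the mean level in the members was 13.8-fold that value. Acta2 was 6.94-fold higher, Cnn1 11.5-fold, Myh11 22.0-fold and Acta1 18.4-fold. Except for Myh11, the sub-cluster 4 levels of these genes lay below the Endothelial means. Those means were 112 CPM for Actg2, 1972 CPM for Acta2, 84.0 CPM for Cnn1 and 13.7 CPM for Acta1. Endothelial cells were shallower, with a median of 9262.5 UMIs against 23388.5 in all cells of sub-cluster 4. The folds are thus taken against low levels, and whether these came from free RNA was not tested. Lmcd1, a LIM protein of muscle, and Nnat, a small membrane proteolipid, had log2 ratios of 2.97 and 3.51. Contractile genes not beyond 1 in all samples were Ppp1r14a, an inhibitor of myosin phosphatase (-0.16), Cald1 (0.38), Des (0.43) and Smtn (0.73).

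Genes under in the members against sub-cluster 4 came from several families. Rgs5, a regulator of G protein signalling used as a pericyte marker, was at 24.6, 45.9 and 37.4 CPM across the Dram2 wt/wt libraries and 35.9, 23.2 and 32.1 CPM across the Dram2 ko/ko ones and at 328 ± 51.8 CPM in sub-cluster 4, with no overlap between the sub-clusters. Dsp, the desmosomal plaque protein, was at 2.07 ± 0.456 CPM against 35.0 ± 5.60 CPM, and Col18a1, a basement membrane collagen, at 4.59 ± 0.882 CPM against 42.7 ± 3.53 CPM. Matn4, a matrix protein of the matrilin family, Tnfrsf18, a receptor of the TNF family, and Sytl1 had mean levels below 1 CPM in the members, with log2 ratios of -4.11, -4.12 and -3.74. Pm20d1 and Ces2e had log2 ratios of -3.16 and -3.02. Dsp, Col18a1, Matn4, Tnfrsf18, Sytl1, Pm20d1 and Ces2e had means below 20 CPM in the members. They passed the filter only through sub-cluster 4, which fixed their direction. How many of the 163 genes under did so was not counted. Of 15 targets of serum response factor and YAP, 4 were over, among them Ankrd1 (2.84) and Actb, cytoplasmic actin (1.16, with 23.5% of its 3′ sequence shared). The type IV collagen chains Col4a1 (1.42) and Col4a2 (1.40) of basement membranes were also over, while Col16a1 and Col18a1 were under. Of 20 genes of the TGF-beta and BMP pathway, 3 were over, among them the ligands Tgfb2 (1.29) and Tgfb3 (1.63), and 2 were under, the BMP antagonist Grem1 (-1.36) and Id2 (-1.40), with a median log2 ratio of -0.39. Igfbp2 was at 173 ± 44.0 CPM in sub-cluster 4, with a log2 ratio of 2.82. TMM scaling in place of CPM gave 139 genes over and 108 under. Of 20 mesenchyme transcription factors, 0 were beyond 1 in either direction, with a median log2 ratio of -0.38.

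**Figure D2:**
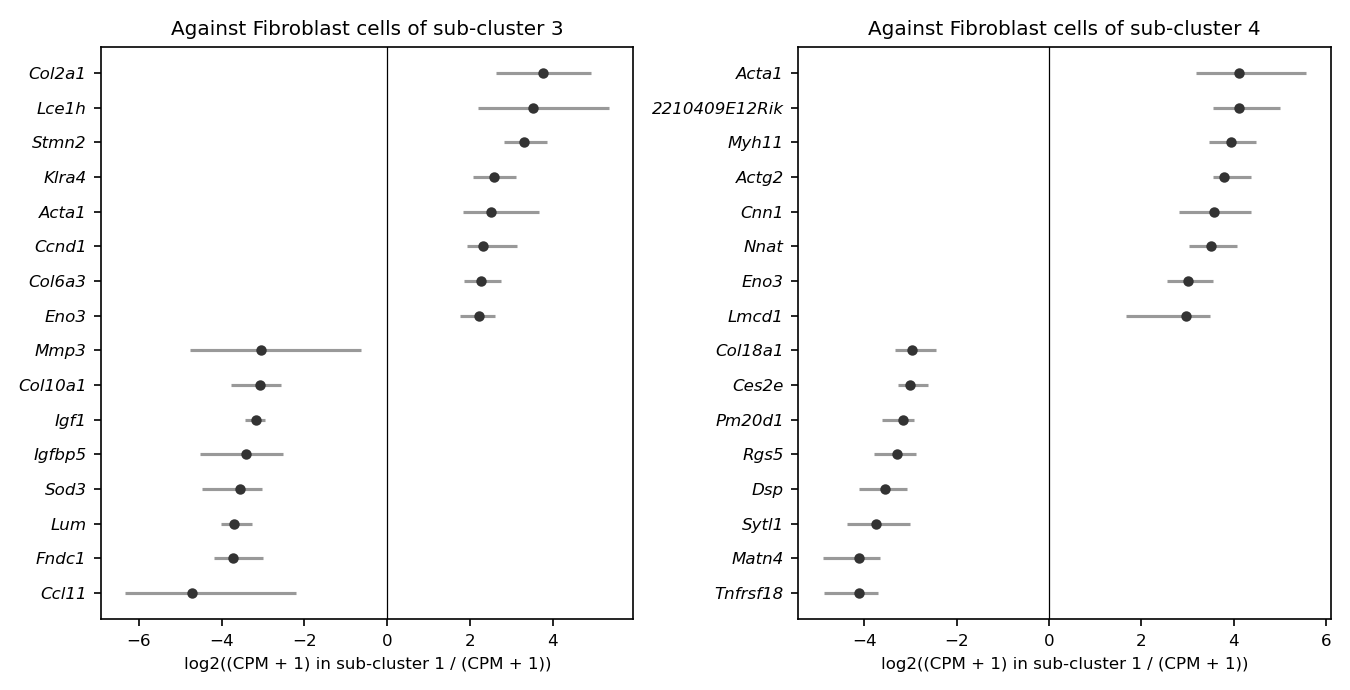
Log2 ratio of the level (CPM plus 1) in sub-cluster 1 to that in Fibroblast cells of sub-clusters 3 (left) and 4 (right), for the 8 genes with the highest and the 8 with the lowest mean ratio. Points are means and lines span the lowest to the highest of 6 samples; no line crosses 0, and Ccl11 and Mmp3 have the widest spans against sub-cluster 3.

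Fibroblast proliferating cells of sub-cluster 2 had higher levels of cell cycle genes than the members, as their type name says. Of 7045 genes, 7 were over in the members (0.0994%) and 348 were under (4.94%). All 23 G2/M phase genes and all 20 S phase genes that reached 20 CPM were under, with Mki67 at 103 ± 11 CPM and Ccna2, an S and G2 phase cyclin, at 160.4 ± 6.57 CPM in the proliferating cells. Both genes, at 1.06 and 2.16 CPM in the members, passed 20 CPM only through the proliferating cells, so the filter fixed that they counted as under. Only 2 G2/M and 7 S phase genes reached 20 CPM in the members or in Fibroblast cells of sub-cluster 3. The others passed through the proliferating cells alone, so the filter fixed the direction of most genes of both lists. Hist1h1c, a linker histone, was at 292, 280.3 and 276 CPM across the Dram2 wt/wt libraries and 274, 279 and 274 CPM across the Dram2 ko/ko ones, hardly varying between samples, and at 65.8 ± 6.43 CPM in the proliferating cells. Hist1h2bc had a log2 ratio of 1.77 ± 0.08. Hmox1, the haem oxygenase induced by oxidative stress, was at 2208 ± 412 CPM against 891 ± 177 CPM. Lysosomal genes had a median log2 ratio of 0.25 and autophagy genes one of 0.14, where that of all genes was -0.04, and 0 genes of either list were beyond 1. Actg2 and Cnn1 had log2 ratios of 0.54 and 0.38, and Col1a1 one of 0.01.

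Within sub-cluster 1, the ratio of variance to mean across single cells was highest for Acta2, Spp1 and Crct1, a ratio not adjusted for a gene's level. Each cell was thinned to 8000 UMIs, which left out 684 shallower members, and the variance of a gene was divided by its mean over the cells of a sample. Over 2925 genes with 0.5 UMI or more per thinned cell the median ratio was 1.13, the value near 1 that counting alone gives. Acta2 had a ratio of 63.2 (range 52.0 to 70.7), Spp1 one of 60.2 (range 46.8 to 85.5) and Crct1 one of 57.6 (range 22.4 to 126). A median cell held 71 to 85 UMIs of Acta2, depending on the sample, while the lowest 10% of cells held at most 14 to 21. Crct1 was absent from the median cell in every sample, and 90% of cells held at most 1 to 2 UMIs of it. Mgp (51.3), Igfbp2 (43.7), the actin-sequestering Tmsb4x (37.6), the calcium-binding S100a6 (29.5), Il11 (28.7), Tagln (26.6) and Actg2 (24.7) followed, with the median ratio in parentheses. Malat1, a nuclear RNA, S100a4, Gm42674, Timp1 and the small heat shock protein Cryab completed the 15 most variable genes.

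The variable genes fell into groups that moved together across cells, given as the median of Spearman's rho over 6 samples. Acta2 and Tagln had a rho of 0.81 (range 0.78 to 0.82), Acta2 and Tmsb4x 0.65 (range 0.60 to 0.69), Acta2 and Actg2 0.62 (range 0.58 to 0.64) and Acta2 and Igfbp2 0.51 (range 0.47 to 0.54). Spp1 ran against them, with -0.35 (range -0.45 to -0.30) for Acta2 and -0.30 (range -0.40 to -0.24) for Tagln, and with Timp1, the inhibitor of metalloproteinases, at 0.34 (range 0.29 to 0.38). Mgp was nearly unrelated to Acta2, at 0.00 (range -0.07 to 0.02). The sign of the relations of Acta2 with Tagln, Actg2, Igfbp2 and Spp1 was the same in all 6 samples. S100a4 and Gm42674 had a rho of 0.86 (range 0.82 to 0.90) but share 3′ sequence, 92.4% of that of Gm42674, and their counts cannot be told apart. Genes of 1 cell share its fixed total of UMIs, which lowers rho between abundant genes.

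**Figure D3:**
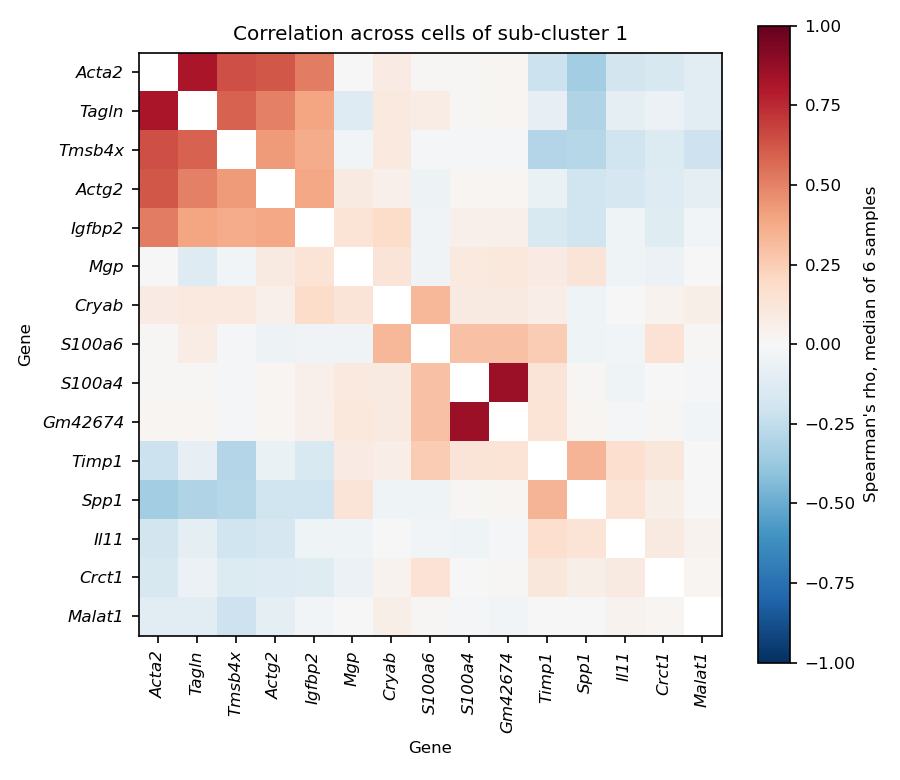
Spearman's rho across thinned cells of sub-cluster 1 for the 15 genes with the highest variance to mean ratio, as the median over 6 samples (colour scale from -1 to 1). Acta2, Tagln, Tmsb4x, Actg2 and Igfbp2 form a block of positive values, and Spp1 and Timp1 are negative against Acta2 and Tmsb4x.

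The share of the members was compared between genotypes. Of Fibroblast cells they made up 77.7%, 77.8% and 78.1% for the Dram2 wt/wt libraries and 74.7%, 78.5% and 71.0% for the Dram2 ko/ko ones, where the lowest value had a Wilson 95% interval of 68.8% to 73.0%. The genotypes overlapped, with means of 77.9% ± 0.222 and 74.7% ± 3.78 (SD, n = 3 each; exact two-sided permutation p 0.4, adjusted p 0.4 over 3 denominators). Of all cells they made up 39.0%, 38.6% and 45.5% for the Dram2 wt/wt libraries and 29.3%, 39.5% and 31.9% for the Dram2 ko/ko ones (exact permutation p 0.3, adjusted p 0.4, n = 3 each). Of the 4 fibroblast types together they made up 41.5%, 44.9% and 48.2% for the Dram2 wt/wt libraries and 30.95%, 41.3% and 38.2% for the Dram2 ko/ko ones, a difference of -8.05 percentage points without overlap, at the smallest p the design allows (exact permutation p 0.1, adjusted p 0.3, n = 3 each). Within batch 1 the difference in the share of Fibroblast cells was -1.29 percentage points (exact permutation p 0.8). Dram2 ko/ko replicate 2 had the second highest share of all cells, above Dram2 wt/wt replicates 1 and 2.

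Dram2 itself was examined first among the genotype effects. It lies on chromosome 3 at 106547798 to 106575890 of GRCm38 on the plus strand, and the library reads its 3′ end, outside the deleted exon, so that its level checks the deletion little. In the members it was at 35.9, 43.2 and 40.4 CPM across the Dram2 wt/wt libraries and 33.2, 30.8 and 34.9 CPM across the Dram2 ko/ko ones. All 3 values of Dram2 ko/ko lay below those of Dram2 wt/wt, as for 7.17% of the 18994 genes tested, while 4.44% had all values above. Its log2 fold change (Dram2 ko/ko over Dram2 wt/wt) by voom-limma came to -0.27 ± 0.0960 (standard error, adjusted p 0.477). Its relative Dram1, a p53 target that acts in autophagy, was at 16.2, 13.8 and 14.4 CPM across the Dram2 wt/wt libraries and 17.2, 17.3 and 13.6 CPM across the Dram2 ko/ko ones, with overlap and a log2 fold change of 0.11 ± 0.120 (standard error, adjusted p 0.919).

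No gene of the lists fixed for these cells passed the test. Of 449 genes in 22 lists of matrix, contractile, secreted, signalling, cell cycle, lysosome, autophagy and stress genes, 415 were tested, 0 had an adjusted p under 0.05 and 14 had an unadjusted p under 0.05 (voom-limma), against 58 (0.305%) and 1390 of all 18994 genes, so that the lists' count of 0 is near the share over all genes. The median log2 fold change of a list ran from -0.17 for the cornified envelope genes to 0.09 for chemokines and cytokines and for S phase genes, where that of all genes was -0.01. Acta2 had a log2 fold change of 0.09 ± 0.108 (standard error, adjusted p 0.919), Actg2 of 0.06 ± 0.120 (standard error, adjusted p 0.947) and Cnn1 of 0.07 ± 0.122 (standard error, adjusted p 0.941). For the matrix, Col1a1 had -0.09 ± 0.133 (standard error, adjusted p 0.932), Fn1 -0.18 ± 0.148 (standard error, adjusted p 0.910) and Mgp 0.08 ± 0.109 (standard error, adjusted p 0.931).

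Other genes, among them secreted, lysosomal and calcium-binding ones, did not pass the test. Spp1 had a log2 fold change of 0.32 ± 0.179 (standard error, adjusted p 0.859), Ccl11 of 0.68 ± 0.341 (standard error, adjusted p 0.796), Ccl2 of 0.31 ± 0.202 (standard error, adjusted p 0.903) and Sprr1a of -0.80 ± 0.479 (standard error, adjusted p 0.881), all with overlapping genotypes. Leaving out 1 sample, these ran from 0.17 to 0.55, 0.39 to 1.07, 0.08 to 0.57 and -1.37 to -0.22. Mmp10, stromelysin 2, was at 18.9, 19.0 and 19.0 CPM across the Dram2 wt/wt libraries and 37.5, 32.5 and 23.7 CPM across the Dram2 ko/ko ones, with no overlap and a log2 fold change of 0.69 ± 0.149 (standard error, adjusted p 0.117). This was the lowest adjusted p of any gene in the 22 lists. Of all 18994 genes tested, 4.44% had no overlap in this direction and 7.17% in the other. S100a4, a calcium-binding protein of motile cells, was at 879, 846 and 1151 CPM across the Dram2 wt/wt libraries and 614, 462 and 759 CPM across the Dram2 ko/ko ones, with no overlap and a log2 fold change of -0.66 ± 0.188 (standard error, adjusted p 0.276), and shares 52.5% of its 3′ sequence with other genes. Lysosomal Ctsl, a cathepsin, was at 1698, 1376 and 1549 CPM across the Dram2 wt/wt libraries and 1758, 2022 and 1498 CPM across the Dram2 ko/ko ones (log2 fold change 0.18, standard error 0.126, adjusted p 0.904), and Gabarap, which drives the closure of autophagosomes, had a log2 fold change of 0.15 ± 0.0963 (standard error, adjusted p 0.899). Cdkn1a, a p53 target that halts the cell cycle, had 0.09 ± 0.120 (standard error, adjusted p 0.931).

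Of 18994 genes, 58 were called at an adjusted p under 0.05 (0.305%), all lower in Dram2 ko/ko, and 1390 had an unadjusted p under 0.05. Gm45808, named for the lowest adjusted p (0.0213, voom-limma), had means of 13.1 CPM for Dram2 wt/wt and 3.29 CPM for Dram2 ko/ko. It shares 92.7% of its 3′ sequence with other genes. All other called genes had adjusted p-values of 0.0442 to 0.0453 (voom-limma), just under the threshold. The annotation names 39 of the 58 as pseudogenes (67.2%, against 15.1% of all genes tested). A further 17 (29.3%, against 25.9%) share 5% or more of their 3′ sequence with other genes on either strand. A read from a stretch shared on the same strand could belong to either copy. Among 11168 genes that are no pseudogenes and share under 5%, tested on their own, 0 were called and 429 had an unadjusted p under 0.05 (voom-limma). Gm7808, a processed pseudogene, was at 82.7, 101 and 111 CPM across the Dram2 wt/wt libraries and 33.6, 28.1 and 12.3 CPM across the Dram2 ko/ko ones (log2 fold change -2.10, standard error 0.298, adjusted p 0.0442), and 100% of its sequence is shared. Rps15-ps2, a copy of a ribosomal protein gene with 58.9% shared, was at 56.0, 63.9 and 68.8 CPM across the Dram2 wt/wt libraries and 21.8, 14.9 and 7.72 CPM across the Dram2 ko/ko ones (log2 fold change -2.21, standard error 0.276, adjusted p 0.0442). The other named genes were sparse: Gm26938 had 46 to 80 UMIs per Dram2 wt/wt sample and 7 to 11 per Dram2 ko/ko sample (log2 fold change -2.45, standard error 0.299, adjusted p 0.0442), Gm14933 19 to 26 and 3 to 4 (log2 fold change -2.24, standard error 0.295, adjusted p 0.0442), and Mpc1-ps 12 to 19 and 1 to 2 (log2 fold change -2.80, standard error 0.355, adjusted p 0.0442), where the fitted fold depends on the prior count.

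Protein-coding genes among the 58, chosen for mention after their values were seen, included Rps20, a ribosomal protein, at 677, 728 and 746 CPM across the Dram2 wt/wt libraries and 364, 232 and 188 CPM across the Dram2 ko/ko ones. Snrpd2, a core protein of the spliceosome and the only called gene with sequence that is no pseudogene and shares under 5%, was at 31.6, 34.4 and 36.3 CPM across the Dram2 wt/wt libraries and 19.1, 12.6 and 9.25 CPM across the Dram2 ko/ko ones. Its log2 fold change was -1.39 (standard error 0.199, adjusted p 0.0442, voom-limma). Among the 11168 genes tested on their own its log2 fold change was also -1.39, but it was not called (standard error 0.200, adjusted p 0.411, voom-limma). Rps20 shares 37.8% of its 3′ sequence. In both genes Dram2 ko/ko replicate 3, of batch 2, was lowest. Without Dram2 ko/ko replicate 3, hence within batch 1, 162 genes were called, 130 of them lower, and all 58 were among them. Without Dram2 ko/ko replicate 2 or without Dram2 wt/wt replicate 3, 0 genes were called, with 1 each without Dram2 wt/wt replicates 1 or 2 and 242 without Dram2 ko/ko replicate 1. With any 1 sample left out, the log2 fold change ran from -3.06 to -2.59 for Mpc1-ps and -2.67 to -2.32 for Gm26938. It ran from -2.27 to -2.19 for Gm14933, -2.52 to -1.80 for Rps15-ps2 and -2.36 to -1.66 for Gm7808. The edgeR quasi-likelihood test called 1 gene and DESeq2 297.

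The effects on the same 58 genes in other fibroblasts of these libraries were close in size. Their median log2 fold change was -1.58 in the members, -1.47 over 48 genes tested in Fibroblast cells of sub-cluster 3, -1.56 over 53 in Fibroblast cells of sub-cluster 4 and -1.59 over 57 in Fibroblast proliferating cells of sub-cluster 2. These groups of cells share each sample's library, so the values are not independent.

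**Figure D4:**
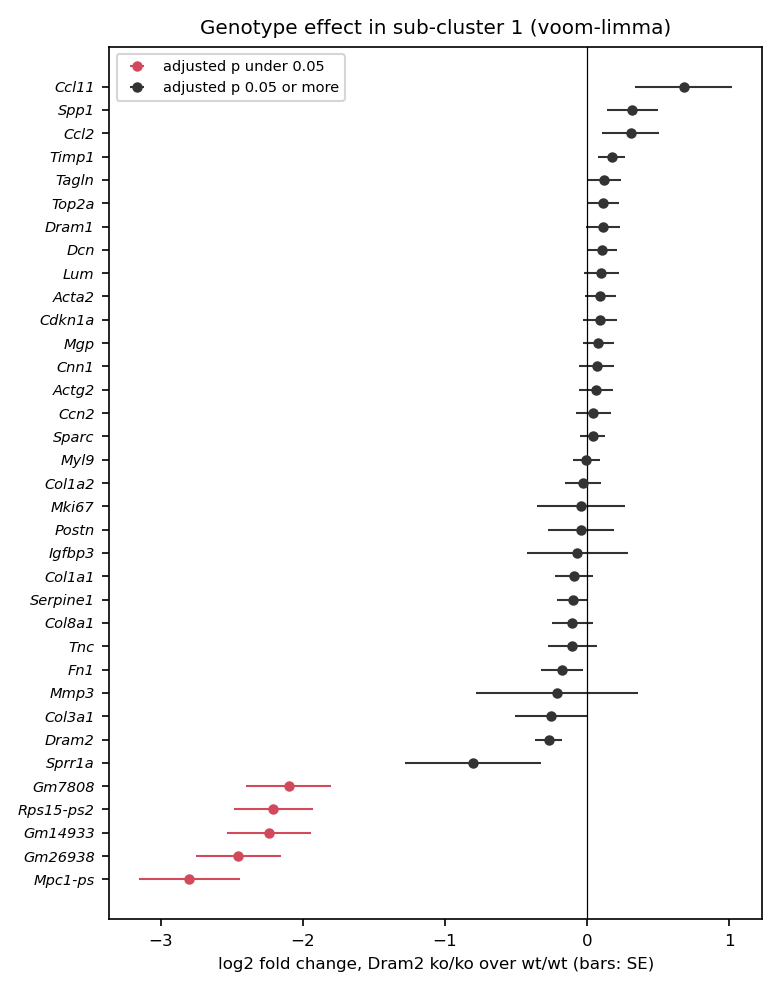
Log2 fold change of Dram2 ko/ko over Dram2 wt/wt in sub-cluster 1 for the named genes, with bars for the standard error (voom-limma, 3 samples each). The 5 genes past the threshold lie at -2.10 or below, while Acta2, Actg2, Col1a1 and Mgp lie at 0.09, 0.06, -0.09 and 0.08.

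The genotype effect was compared with that in neighbouring cells by an interaction term, with the sample as a block. Against Fibroblast cells of sub-cluster 3, 2 of 17728 genes differed (0.0113%). Spp1 was at 1143 and 1391 CPM (means of Dram2 wt/wt, then of Dram2 ko/ko) in the members, and at 5754 and 3760.0 CPM in sub-cluster 3, a difference of log2 fold changes of 0.88 ± 0.130 (standard error, adjusted p 0.0134). Serpinb2, an inhibitor of plasminogen activators, was at 120.2 and 150.4 CPM in the members and at 37.5 and 91.7 CPM in sub-cluster 3, a difference of -0.96 ± 0.112 (standard error, adjusted p 0.000850). Spp1 shares 12.4% and Serpinb2 30.6% of the 3′ sequence with other genes, so both counts are uncertain. Within batch 1, without Dram2 ko/ko replicate 3, 3 genes differed, and without Dram2 wt/wt replicates 1 or 2 or Dram2 ko/ko replicate 2 there were 7, 6 and 5. Serpinb2 passed with each of the 6 samples left out, and Spp1 in 5 of 6, with the highest adjusted p at 0.0625 (voom-limma). With no filter on low counts 0 genes were called, so neither passed.

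Against Fibroblast cells of sub-cluster 4, 14 of 18494 genes differed (0.0757%), 10 with the more positive effect in the members. They held 5 contractile genes, Acta2, Tagln, Actg2, Cnn1 and Csrp1, a LIM protein of smooth muscle. In sub-cluster 4 the mean levels of all 5 were below those of Endothelial cells (1972, 2940.4, 112, 84.0 and 395 CPM), and a difference in free RNA between libraries was not tested. Cnn1 was at 579, 570.1 and 583 CPM across the Dram2 wt/wt libraries and 539, 561 and 730.1 CPM across the Dram2 ko/ko ones in the members. In sub-cluster 4 it was at 81.1, 54.7 and 59.4 CPM across the Dram2 wt/wt libraries and 25.2, 48.6 and 42.0 CPM across the Dram2 ko/ko ones, where the genotypes did not overlap and all 6 values lay below the Endothelial mean of 84.0 ± 32.8 CPM. The effect on Cnn1 within sub-cluster 4 alone did not pass (adjusted p 0.216, voom-limma), and the share of all genes without overlap there was not counted. The difference of log2 fold changes was 0.83 ± 0.142 (standard error, adjusted p 0.0157) for Cnn1 and 0.28 ± 0.0439 (standard error, adjusted p 0.0157) for Acta2 (voom-limma).

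These contractile genes also separate the sub-clusters, with log2 ratios of 1.85 to 3.80 between the members and sub-cluster 4. Whether cells near the border of the sub-clusters were assigned differently in the genotypes was not tested. Within batch 1, 8 genes differed, with 6 to 19 for the other samples left out, the lowest without Dram2 wt/wt replicate 3, and 2 with no filter on low counts. Acta2 passed with each of the 6 samples left out, Tagln and Csrp1 in 5 of 6, Cnn1 in 3 and Actg2 in 2. Sub-cluster 4 held 95 cells of Dram2 ko/ko replicate 1, its smallest sample, where Cnn1, Acta2 and Actg2 were lowest.

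Genes outside the contractile list followed in the same comparison. Eln, elastin, was at 2.21 and 3.05 CPM in the members and at 15.6 and 5.81 CPM in sub-cluster 4, a difference of 1.91 ± 0.361 (standard error, adjusted p 0.0407). Cdkn1c, an inhibitor of the cell cycle, was at 31.1, 38.2 and 34.8 CPM across the Dram2 wt/wt libraries and 42.3, 44.5 and 33.3 CPM across the Dram2 ko/ko ones in the members. In sub-cluster 4 it was at 63.5, 47.9 and 40.4 CPM across the Dram2 wt/wt libraries and 17.0, 32.5 and 24.9 CPM across the Dram2 ko/ko ones, without overlap, though its effect there alone did not pass (adjusted p 0.0592, voom-limma). The difference of log2 fold changes was 1.17 ± 0.191 (standard error, adjusted p 0.0157), with 11.3% of the 3′ sequence of Cdkn1c shared. Cdkn2a, another inhibitor of the cell cycle, went the other way with -1.10 ± 0.210 (standard error, adjusted p 0.0422), as did Sbsn, suprabasin, with -0.82 ± 0.140 (standard error, adjusted p 0.0157) (voom-limma). Eln passed in 2 of 6 fits that left out a sample, Cdkn1c in 5, Cdkn2a in 1 and Sbsn in 3. Against Fibroblast proliferating cells of sub-cluster 2, 0 of 19148 genes differed by voom-limma, the only tool run for it, and 709 had an unadjusted p under 0.05, with 2 and 3 called without Dram2 ko/ko replicates 1 and 2.

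**Figure D5:**
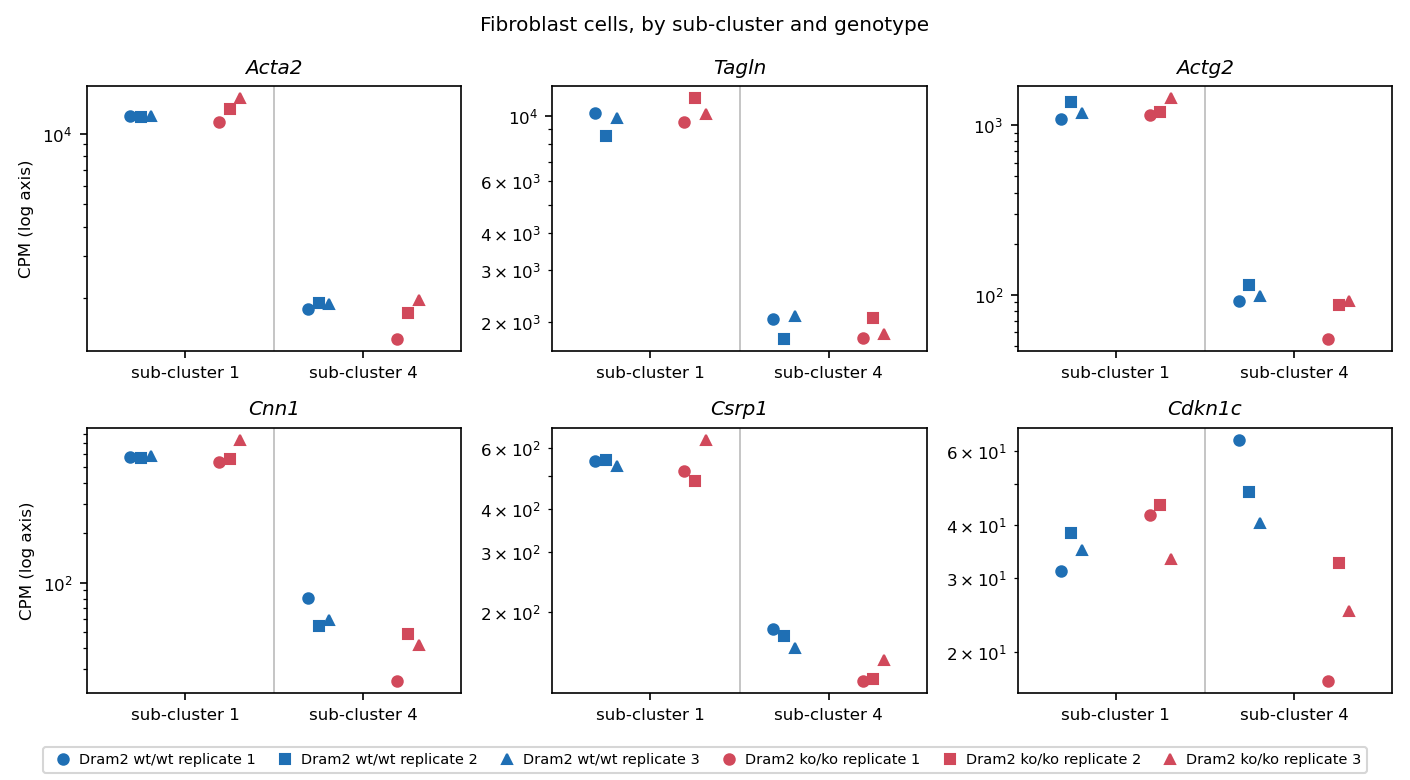
Level of 6 genes (CPM, log axis) in Fibroblast cells of sub-clusters 1 and 4, with 1 point per sample by genotype and replicate. In sub-cluster 1 the genotypes overlap for all 6 genes, while in sub-cluster 4 Cnn1, Csrp1 and Cdkn1c are lower in every Dram2 ko/ko sample, at levels below the Endothelial means of Cnn1 and Csrp1. The 6 genes were drawn because the interaction term called them. The share of all genes without overlap in sub-cluster 4 was not counted. Within sub-cluster 4 alone Cnn1, Csrp1 and Cdkn1c did not pass (adjusted p 0.216, 0.220 and 0.0592, voom-limma).

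The share of members with a UMI of the 4 marker genes was compared after thinning. Actg2 was found in 71.3%, 80.0% and 73.9% for the Dram2 wt/wt libraries and 71.4%, 75.9% and 74.9% for the Dram2 ko/ko ones, against 21.1% of Endothelial and 54.2% of Myeloid cells, whose median depths were 9262.5 and 16550 UMIs. Mgp was found in 92.7% ± 1.90 of the Dram2 wt/wt members and 91.8% ± 1.88 of the Dram2 ko/ko members (SD, n = 3 each), against 59.6% and 81.4% of those background types. Col1a1 was found in 97.9% ± 0.869 and 96.7% ± 1.23, against 17.5% and 64.4%. The shares of these 3 genes lay above both backgrounds, but not always above those of other fibroblasts. In sub-clusters 4 and 5 Mgp was found in 90.3% and 92.2%, Actg2 in 31.7% and 76.2%, and Col1a1 in 86.1% and 33.5%.

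Sprr1a was found in 1.61%, 2.00% and 1.88% for the Dram2 wt/wt libraries and 0.325%, 0.808% and 1.37% for the Dram2 ko/ko ones, with 0 of 171 Endothelial cells, which allows a share of up to 1.75%, and 1.69% of Myeloid cells. RPE cells had 1.40%, above each Dram2 ko/ko share of the members, and sub-clusters 4 and 5 had 1.02% and 3.40%. The share in the members was lower in every Dram2 ko/ko sample, at the smallest p the design allows (exact permutation p 0.1, adjusted p 0.4 over 4 genes, n = 3 each). The Myeloid share is 1 of 59 thinned cells, and summed Sprr1a was at 0 CPM in all 6 Endothelial and all 4 Myeloid samples with 10 or more cells. For Mgp, Col1a1 and Actg2 the exact permutation p was 0.7, 0.3 and 0.9. Before thinning, the mean share for Sprr1a was 2.78% for Dram2 wt/wt and 1.62% for Dram2 ko/ko, and that for Actg2 86.2% and 84.3%.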

How the data were processed

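Single-cell libraries were made with the 10x 3′ v2 chemistry. The authors deposited UMI counts per gene and cell, made with Cell Ranger 3.1.0 on GRCm38 per the labels and counting exons only, on libraries read at the 3′ end, without normalisation; cell types and sub-clusters are from the authors' annotation, obtained with Seurat. The table held 52636 genes. Counts were summed per sample over the cells of a group (10 or more cells), kept where filterByExpr kept them, given TMM factors from edgeR 4.0.16 and tested by voom-limma (limma 3.58.1, R 4.3.3), with Benjamini-Hochberg adjustment at 0.05. Differences of genotype effects were tested by an interaction term with the sample as a factor. Levels are CPM, and ratios are log2 of CPM plus 1, per sample, so they understate changes of low genes. For shares the permutation test was exact and two-sided. No doublet caller was run; an alternative left out the 5% of cells with most UMIs. Shared sequence is the percentage of 31-base words in the last 400 bases of a gene's transcripts (GENCODE M21) found in other genes, and 52371 genes had sequence. Words were matched on either strand, so overlap with a gene on the opposite strand also counts as shared and was not told apart. Limits for shares of 0 (3 cells of the total) cover counting error only. Fits were tested on simulated data. DESeq2 1.42.0, edgeR, other scalings, filters, the batch, the replicate number and each sample left out were tried as alternatives.

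Named genes were a fixed list of 30 genes, at most 5 called genes in each direction by size of change without overlap, up to 5 called genes per interaction, the genes with the most extreme level ratios (15 and 10 against the rest, 8 and 8 against sub-clusters 3 and 4, 5 and 5 against sub-cluster 2), the 15 most variable genes, and list members with the highest levels. Other list members, among them Mmp10 and those counted as over or under, are named as examples chosen after their values were seen. The members, lists and tests were chosen with earlier results of these data known.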

Additional observations from a re-analysis of the deposited data

Results flagged for a closer look

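Genes whose genotype effect differed between sub-cluster 1 and a neighbouring group of cells by the interaction term of voom-limma are given with the difference of their log2 fold changes, positive where the members had the higher one. Against Fibroblast cells of sub-cluster 3 these were Spp1 (0.88), Serpinb2 (-0.96). Against Fibroblast cells of sub-cluster 4 they were Eln (1.91), Cdkn1c (1.17), Cnn1 (0.83), Mcpt8 (0.75), Plac8 (0.55), Actg2 (0.45), Csrp1 (0.36), Prdx6 (0.29), Acta2 (0.28), Tagln (0.21), 9530059O14Rik (-0.81), Tmem147os (-0.82), Sbsn (-0.82), Cdkn2a (-1.10). Spp1, Serpinb2, Cdkn1c, Tagln, Sbsn and Tmem147os share 12.4%, 30.6%, 11.3%, 65.1%, 32.1% and 92.2% of their 3′ sequence with other genes. Sbsn and Tmem147os had nearly equal levels, with means of 52.1 and 47.0 CPM for Dram2 wt/wt in sub-cluster 4. Whether they are separate signals was not tested. 9530059O14Rik passed in 0 of the 6 fits that left out a sample.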

How the results depend on the processing

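The 58 genotype calls depended on the fit. The count was 1 with the edgeR quasi-likelihood test, 297 with DESeq2, 1 with library size alone, 167 with no filter on low counts, 122 with the batch as covariate (22 of them higher), 0 among genes that are no pseudogenes and share under 5% of sequence, and 0 to 242 with 1 sample left out. With the replicate block it was 2. Samples of the same number correlated at 0.063, -0.33 and 0.080, and those of different numbers at -0.39 to 0.42. So few samples cannot show whether the numbers pair them. The block leaves the share difference of -3.17 percentage points unchanged by construction. The difference of the genotype effect was called for 0 genes (sub-cluster 3) and 2 (sub-cluster 4) with no filter, for 9 (sub-cluster 4) with library size alone, and, leaving out 1 sample, for 2 to 7, 6 to 19 and 0 to 3 genes against sub-clusters 3, 4 and 2. Genes over against the rest, sub-cluster 3 and the proliferating cells numbered 0, 19 and 4 with a pseudocount of 10, and genes under against sub-clusters 3 and 4 numbered 45 and 84. TMM scaling gave 3 genes over against the rest, 11 against the proliferating cells, and 139 over and 108 under against sub-cluster 4; it moved the median log2 ratio of all genes from -0.05 to 0.06 against the rest and from -0.14 to 0.03 against sub-cluster 4. Leaving out 1 sample gave 1 to 3 genes over against the rest, and an Actg2 share difference of -2.91 to 1.47 percentage points. Named genes that were not called changed sign. Leaving out 1 sample, the log2 fold changes ran -0.034 to 0.14 for Actg2, -0.062 to 0.080 for Myl9, -0.19 to 0.015 for Col1a1, -0.15 to 0.053 for Col1a2, -0.44 to 0.033 for Col3a1, -0.24 to 0.17 for Postn, -0.54 to 0.35 for Mmp3, -0.34 to 0.15 for Mki67, -0.030 to 0.16 for Mgp, -0.42 to 0.31 for Igfbp3, -0.086 to 0.16 for Ccn2, -0.22 to 0.010 for Col8a1, -0.22 to 0.078 for Tnc, -0.035 to 0.18 for Lum, -0.064 to 0.16 for Cnn1 and -0.00166 to 0.199 for Cdkn1a. Igfbp3 was at 0.0258, 0.0477 and 0.287 with edgeR, DESeq2 and the batch, Mki67 at 0.00356 and 0.0188 with edgeR and DESeq2, and Myl9 at 0.0165, 0.0103 and 0.00181 with DESeq2, relative log expression factors and without the 5% deepest cells. With the batch, Actg2, Sparc and Cnn1 were at -0.0493, -0.0143 and -0.0796. Of 737 recomputed level ratios of named genes, 652 moved by less than the spread between samples, 85 by more, and 0 changed sign. The cause of these changes was not tested.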
